A study of Homo sapiens and Mus musculus with 12 samples.

Results

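The RNAs described here are 430 long noncoding RNAs of A375, a human melanoma cell line, out of 16782 genes listed for that line. They were chosen by their symbols and their level. The symbol had to begin with LINC and a digit (long intergenic noncoding RNA), end in -AS and digits (antisense to the named gene), end in -DT (divergent transcript, which starts near the named gene's start and runs away from it) or end in -IT1 (intronic transcript). The mean over the 6 A375 libraries, the same libraries whose levels are described, had to reach 2 TPM (read density per gene length scaled to a fixed total within a library). Of 1614 symbols of these kinds, 431 reached that level, and the rule leaves out 1 of them, EPB41L4A-AS1. The 430 hold 113 LINC genes, 219 antisense genes, 95 divergent transcripts and 3 intronic transcripts. The genes just outside the limit were LINC00960 (mean 1.994 TPM), OR2A1-AS1 and LINC03072 (both 1.997), and those just inside were LINC01446 (2.001), TIRAP-AS1 (2.003) and TRAF3IP2-AS1 (2.025).

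The study profiled polysomes of parental melanoma cells and of drug-tolerant persister cells, which survive a drug without stable resistance. Lysate was spun through a sucrose gradient, where RNAs sediment largely by the ribosomes they carry. No library here tells RNA on ribosomes from RNA in other complexes that sediment as far. A375 gave 6 libraries: input, monosome and polysome RNA from a state labelled P and from a state labelled S. Which letter is the parental state is not in the labels, nor are a drug, dose or time, so the letters are kept and every difference is S relative to P. The monosome pool joins the 80S peak with several lighter fractions before it, so it also takes up RNA with no ribosome or with a single subunit. The polysome pool holds the densest fractions at the bottom, and fractions between the pools are in neither library. Each group has 1 library, so no difference has a replicate check and no test or p-value is given.

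Long noncoding RNAs are transcribed, and often spliced and polyadenylated, as mRNAs are, but hold no long conserved reading frame. Many stay in the nucleus. Others reach the cytoplasm, where a scanning ribosome can start on a short reading frame, and a few encode small peptides. A spliced mRNA with a long reading frame carries many ribosomes at once, whereas a short frame has room for few. Antisense and divergent genes add a second property, since they share a locus, and often a promoter region, with a protein-coding gene.

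The values are TPM, so depth is unknown, and a level is a share of its library. The listed genes sum to between 66.6% and 90.1% of 1000000 TPM per library. Mitochondrially encoded RNA took 42.4% of the listed TPM in P monosomes and 48.6% in S monosomes, against 2.55% and 10.1% in polysomes. When these genes were removed and TPM rescaled, the 26 shares and medians of members computed here all stayed within 1.5 times of their values (medians compared as folds). Rescaling multiplies all values of a library by the same factor, which taking differences relative to the median gene nearly removes. This setting could therefore move them little, and an effect of the mitochondrial share was not tested. The melanoma markers chosen for this check differed in level. In P input and S input, SOX10 had 156 and 217 TPM, S100B 332 and 314, S100A1 558 and 2120, and PRAME 277 and 189. MCAM had 278 and 370 TPM, CSPG4 42.7 and 43.5, and MITF 66.6 and 43.0. DCT had 25.2 and 249 TPM and PMEL 6.49 and 39.5. TYRP1 had at most 1.01 TPM in any library, and MLANA and TYR were not among the genes analysed. Of the markers chosen for other cell types, KRT10 had between 37.1 and 73.0 TPM, KRT14 at most 2.23 and VWF at most 0.676, and the other 7 were not among the genes analysed. Differences were taken as log2(TPM + 1) and are given relative to the median of the 12638 genes that averaged 1 TPM or more. At least 2-fold on that scale is called higher or lower. This scale understates the differences of low genes.

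These RNAs were a small part of every library. Together they held 4163 TPM in P input, 4846 in P monosomes and 2435 in P polysomes, and 3558, 2543 and 1988 in the same fractions of S. As a share of the listed TPM, that was 0.506%, 0.728% and 0.278% in P and 0.439%, 0.354% and 0.221% in S. The median member had 5.30, 5.48 and 2.23 TPM in P and 4.91, 3.68 and 2.27 in S. The sum and the median were therefore lowest in polysomes in both states, and the monosome library was the highest of the 3 in P but not in S. Most members were low: 138 had a mean of 2 to 3 TPM, 128 of 3 to 5, 88 of 5 to 10 and 76 of at least 10. Of the 430, 352 had at least 0.5 TPM in all 6 libraries, 140 had at least 2, and 17 were listed at 0 in at least 1. In 27, a single library held more than 50% of the 6-library sum.

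**Figure D1:**
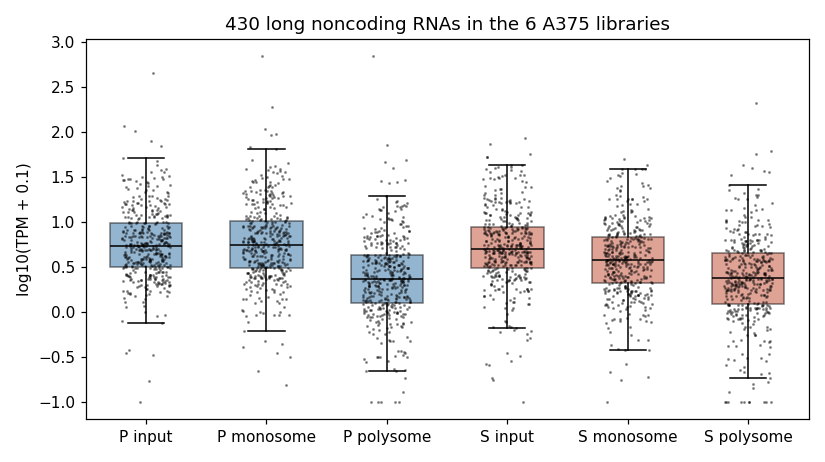
Level of each of the 430 long noncoding RNAs in the 6 A375 libraries, as log10(TPM + 0.1) (points), with the median, quartiles and whiskers to 1.5 times the interquartile range. Medians were 5.30, 5.48 and 2.23 TPM in P and 4.91, 3.68 and 2.27 in S, lowest in polysomes in both states.

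Polysome and monosome RNA were compared to show where on the gradient these RNAs lie. In P, 371 of 430 were at least 2-fold lower in polysomes relative to the median gene (86.3%, against 20.8% of all genes tested), and 2 were higher (0.465%, against 19.1%). The median log2 difference was -2.12, with quartiles at -2.66 and -1.34. In S, 245 were lower (57.0%, against 16.7%) and 5 were higher (1.16%, against 20.8%), with a median of -1.10. The median gene itself was shifted by 1.05 in P and 0.67 in S, which lowers each member by that much. On the deposited scale, with no such shift, 222 members were lower and 19 higher in P (51.6% and 4.42%, against 7.36% and 51.6% of genes tested), and 106 lower and 19 higher in S (24.7% and 4.42%, against 4.86% and 38.7%). Without any fold limit, polysome TPM was below monosome TPM in 365 members in P (84.9%, against 19.5% of genes tested) and in 312 in S (72.6%, against 27.1%). Of the 430, 237 were lower in both states, 134 in P only, 8 in S only and 51 in neither. These 4 counts come from separate thresholds in each state. The same split was not computed for all genes tested, so the counts are not read as a trait of these RNAs. The difference between states is given further on.

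**Figure D2:**
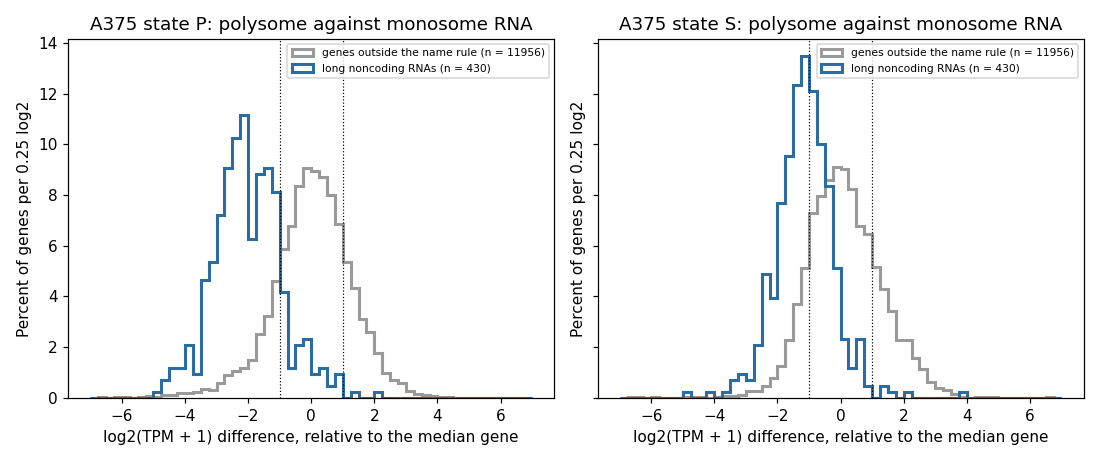
Distribution of the log2(TPM + 1) difference of polysome against monosome RNA, relative to the median gene, for the 430 long noncoding RNAs and for 11956 tested genes outside the symbol rule, in percent of each set per bin of 0.25. Dotted lines mark 2-fold. The long noncoding RNAs centre on -2.12 in P and on -1.10 in S.

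A low level pulls a log2(TPM + 1) difference toward 0, so members were set beside other genes of the same mean level. In P, 88.4% of members with a mean of 2 to 3 TPM were lower in polysomes, against 25.4% of the other genes at that level. The shares were 79.7% and 16.3% at 3 to 5 TPM, 88.6% and 15.6% at 5 to 10, and 90.8% and 14.8% at 10 or more. In S they were 55.1% and 19.0%, 53.9% and 18.4%, 60.2% and 15.4%, and 61.8% and 12.9%. Members were thus more often lower than other genes in each of the 4 bands in both states.

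The symbol classes had different shares. Divergent transcripts were lower in polysomes in 87 of 95 in P (91.6%, median -2.26) and antisense genes in 194 of 219 (88.6%, median -2.21). LINC genes, many of which lie away from coding genes, were lower in 88 of 113 (77.9%, median -1.7). In S the shares were 61.1%, 58.4% and 49.6%. Host genes of small nucleolar RNAs, which are spliced noncoding RNAs with those small RNAs in their introns, were set beside them: all 27 tested were lower in P (median -3.97) and 24 in S (-2.84). Among 12 other long noncoding RNAs from a fixed list, 10 were lower in P and 7 in S. CYTOR, one of them, had 75.8, 148 and 21.8 TPM in input, monosomes and polysomes of P and 51.0, 72.8 and 8.19 in S.

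The lowest polysome-to-monosome ratios in P belonged to LINC03026, LINC01419, ZDHHC12-DT, PPP1R14B-AS1 and COA6-AS1. LINC03026 had 14.3 TPM in P input, 40.7 in P monosomes and 1.86 in P polysomes, and 0.0869, 17.1 and 0.708 in S (log2 -4.91 in P and -4.07 in S). Its S input level was thus far below its S monosome level. PPP1R14B-AS1, on chromosome 11 from 64245964 to 64248217 (plus strand), had 7.41, 18.1 and 0.729 TPM in P and 11.1, 28.2 and 0.692 in S (-4.51 and -4.78). ZDHHC12-DT had 6.64, 19.1 and 0.667 TPM in P and 12.9, 23.6 and 2.47 in S (-4.64 and -3.49). In both states these 3 RNAs were highest in monosomes and lowest in polysomes, apart from LINC03026 in S, which was lowest in input. COA6-AS1 (8.17, 21.0 and 1.10 TPM in P, and 6.70, 10.6 and 1.98 in S) had that order too. LINC01419 had 4.35, 14.2 and 0.181 TPM in P, but 1.69, 0.820 and 0.0682 in S, where its monosome level was below input.

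Few members were higher in polysomes. LINC01963, on chromosome 2 from 216217045 to 216220192 (plus strand), had 14.9 TPM in input, 2.38 in monosomes and 28.6 in polysomes of P, and 23.0, 4.79 and 39.7 in S. The log2 difference was 2.08 in P and 2.14 in S, and polysomes were the highest library in both states. It has 1 exon and no exonic overlap with a coding gene in GENCODE v29. ZNF584-DT was the other member called higher in P (1.29), at 7.46, 1.29 and 10.6 TPM, and had 1.58, 0.393 and 2.06 in S. LINC00622, on chromosome 1 from 119597702 to 119599271 (minus strand), also has 1 exon and no such overlap. It had 8.13, 2.75 and 13.9 TPM in P and 3.54, 1.15 and 7.22 in S (0.94 and 1.27). MPDU1-AS1 had 26.9, 17.4 and 46.6 TPM in P and 33.2, 11.1 and 62.3 in S (0.32 and 1.72). BAIAP2-DT had 2.48, 0.796 and 3.48 TPM in P and 9.32, 2.41 and 13.4 in S, where it was called higher (1.42). Each of these 5 RNAs had more TPM in polysomes than in monosomes in both states. The other member called higher in S was TUBA1B-AS1, described further on.

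The longest reading frames of 5 RNAs from the 2 ends are shown to compare what a ribosome could read on them. Each is the longest frame from ATG to a stop codon over the gene's GENCODE v29 transcripts (GRCh38). It is given 5′ to 3′, with the start and stop codons in capitals. A frame in the sequence is a description and does not show that it is translated. LINC01963 (called higher in P and S) and LINC00622 (called higher in S only) have frames of 98 and 62 codons in transcripts of 3148 and 1570 bases. ZDHHC12-DT and PPP1R14B-AS1 were polysome-low, with frames of 53 and 49 codons in transcripts of 544 and 431 bases. COA6-AS1, also polysome-low, has a frame of 21 codons in 575 bases.
LINC01963: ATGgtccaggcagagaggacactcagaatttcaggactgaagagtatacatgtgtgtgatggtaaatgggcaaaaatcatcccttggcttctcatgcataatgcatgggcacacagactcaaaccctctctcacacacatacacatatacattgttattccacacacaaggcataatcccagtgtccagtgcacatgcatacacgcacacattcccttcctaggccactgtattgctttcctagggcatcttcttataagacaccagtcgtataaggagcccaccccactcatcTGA
LINC00622: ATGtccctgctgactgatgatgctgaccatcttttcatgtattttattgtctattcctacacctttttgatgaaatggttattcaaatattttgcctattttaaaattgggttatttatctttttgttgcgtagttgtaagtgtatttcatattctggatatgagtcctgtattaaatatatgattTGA
ZDHHC12-DT: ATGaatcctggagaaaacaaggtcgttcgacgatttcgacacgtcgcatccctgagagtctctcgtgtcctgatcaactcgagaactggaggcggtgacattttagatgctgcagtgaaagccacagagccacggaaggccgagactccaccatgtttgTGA
PPP1R14B-AS1: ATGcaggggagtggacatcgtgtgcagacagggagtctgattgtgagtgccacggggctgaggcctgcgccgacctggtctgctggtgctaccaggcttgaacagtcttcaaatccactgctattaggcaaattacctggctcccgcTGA
COA6-AS1: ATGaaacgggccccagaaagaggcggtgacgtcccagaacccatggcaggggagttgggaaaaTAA
Other members at these ends had other lengths. LINC01419, the second lowest in P, has a longest frame of 60 codons in 1521 bases, close to LINC00622, and ZNF584-DT, called higher in P, has 153 codons in 3059 bases.

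Over the 414 members matched to GENCODE v29, the longest reading frame had a median of 93 codons and the longest transcript a median of 1675 bases. Members with short frames were more often polysome-low. In P, 95% of the 141 members with the shortest frames (up to 75 codons) were lower in polysomes, 85.4% of the 137 in the middle and 78.7% of the 136 with the longest frames (over 112 codons). In S the shares were 67.4%, 54.0% and 49.3%. Transcript length, in sets of 138 from short to long, gave 94.9%, 87.7% and 76.8% in P and 63.8%, 56.5% and 50.7% in S. The Spearman rho across genes between frame length and the log2 difference was 0.30 in P and 0.23 in S, and for transcript length 0.25 and 0.18. Frame length and transcript length move together, and genes of 1 library are not independent replicates, so these rho values are descriptions. The longest frame was taken over all transcripts of a gene, so it need not lie in the longest transcript. Which transcripts A375 makes was not measured, so the longest annotated one need not be the one sequenced.

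**Figure D3:**
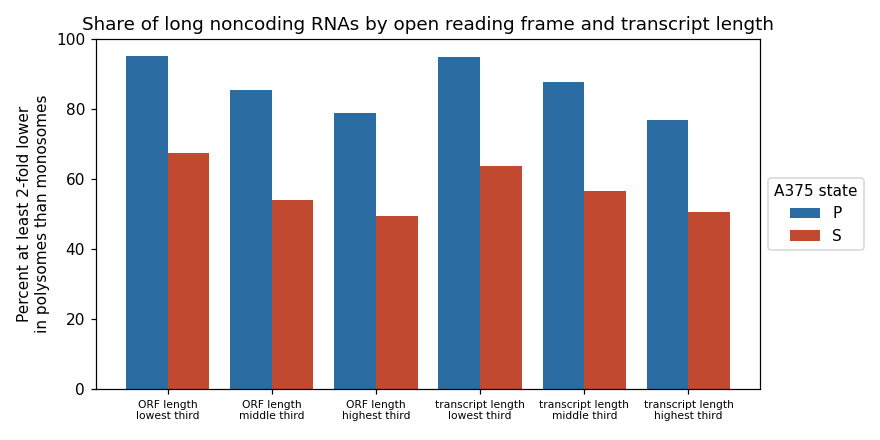
Percent of the 414 annotated long noncoding RNAs at least 2-fold lower in polysomes than in monosomes, relative to the median gene, in 3 near-equal sets by reading frame (ORF) length and 3 by transcript length, in P and S. The share was highest in the shortest set of each kind, at 95% and 94.9% in P and 67.4% and 63.8% in S.

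The strand setting of the authors' counting is not given in the sources used here, and without it reads of a gene and of an overlapping antisense gene cannot be told apart. The same comparison was therefore read by overlap. Of 201 members with no exonic overlap with a coding gene, 84.1% were lower in polysomes in P and 57.7% in S. Of 195 that overlap a coding exon on the opposite strand, 89.7% and 56.9% were lower, and of 18 that overlap one on the same strand, 77.8% and 50%. The 246 members with a coding start on the opposite strand within 1000 bases of their own were lower in 91.5% in P and 59.3% in S, against 79.2% and 53.6% of the 168 without. GENCODE v29 lists 2 of the 414, KRT10-AS1 and LINC02693, as protein coding.

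The gradient position of a member was unlike that of its coding partner. For 303 members the gene named in the symbol was among the genes listed, and the median log2 difference of polysome against monosome RNA was -2.20 for the members and -0.06 for the partners in P, and -1.13 and -0.08 in S. In P, 235 of the 303 members were at least 2-fold below their partner and 11 above it, and in S 160 and 15. Across pairs, Pearson's r between member and partner was 0.02 in P and 0.12 in S (303 pairs, a description). MIF-AS1 is one of the pairs with a far more abundant partner and an exonic overlap with it. MIF, which encodes a secreted cytokine, had 1480, 534 and 1160 TPM in P and 1330, 616 and 1320 in S. MIF-AS1 had 69.5, 26.9 and 48.6 TPM in P and 52.2, 22.9 and 57.0 in S. Both were lowest in monosomes in P and S, and reads of the 2 genes may be mixed.

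**Figure D4:**
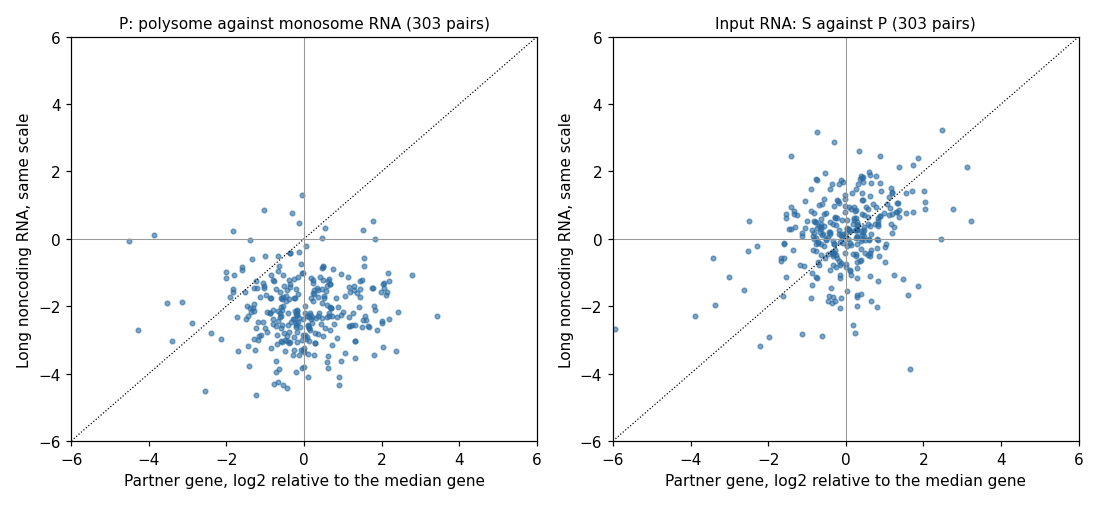
Log2 difference of each long noncoding RNA against that of its partner gene, both relative to the median gene, for polysome against monosome RNA in P (left) and for S against P in input RNA (right), 303 pairs. The dotted line marks equal values. On the left most points lie below it (medians -2.20 and -0.06), and on the right they scatter around it (r 0.31).

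The difference between S and P in the polysome-to-monosome ratio rests on the same 4 libraries as both ratios. It was at least 2-fold higher in S for 174 members (40.5%, against 13.1% of genes tested) and lower for 6 (1.40%, against 7.88%), with a median of 0.84. As deposited, where the median gene was at -0.29, 105 were higher (24.4%, against 7.89%) and 18 lower (against 16.2%). Without a fold limit, 366 members (85.1%) had a higher ratio in S relative to the median gene, against 50% of genes tested. Divergent (46.3%) and antisense (45.2%) members were called higher more often than LINC members (26.5%). The difference was not particular to the members. Of the 27 host genes of small nucleolar RNAs, 14 were higher (51.9%) and 0 lower. Of the 12 other long noncoding RNAs, 4 were higher (33.3%) and 1 lower. Of 303 partners, 24 were higher and 32 lower. Members were thus nearer to the median gene in S, while 57.0% of them were still called polysome-low there.

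Both libraries behind the ratio differed between states, and the members' median difference was further from 0 in monosomes than in polysomes. In the monosome libraries, 130 members were lower in S (30.2%, against 13.2% of genes tested) and 35 higher (8.14%, against 11.7%), with a median of -0.53. In the polysome libraries, 46 were lower (10.7%, against 15.6%) and 79 higher (18.4%, against 16.5%), with a median of 0.25. As deposited, 57 were lower and 55 higher in polysomes (20.6% and 12.5% of genes tested). TTC28-AS1 had 6.96, 24.3 and 1.57 TPM in P and 5.81, 3.96 and 1.98 in S (ratio 2.85 higher on the log2 scale). GABPB1-AS1 had 4.87, 20.2 and 1.57 TPM in P and 5.26, 2.22 and 1.67 in S (3.07). For both RNAs input and polysome levels were close between states and the monosome level was the one that stood apart, high in P.

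Of the 5 members with the lowest ratio difference, ANKRD10-IT1 had 10.9, 0.832 and 5.82 TPM in P and 0.396, 1.53 and 0.394 in S (-2.46). IL10RB-DT had 0.688, 0.521 and 3.40 TPM in P and 2.94, 3.57 and 1.87 in S (-1.91). LINC00326, ALDH1L1-AS1 and ZFHX2-AS1 followed, at -1.75, -1.66 and -1.55. In these first 2 RNAs the polysome library was above the monosome library in P and below it in S.

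Monosome RNA was also set against input RNA, which shares the monosome libraries with the comparisons above. In P, 211 members were higher in monosomes relative to the median gene (49.1%, against 8.50% of genes tested) and 5 lower (1.16%, against 11.6%), with a median of 0.98. As deposited, where the median gene was at -0.95, 32 were higher (7.44%, against 1.42%) and 27 lower (against 47.2%). In S, 48 were higher (11.2%, against 4.99%) and 10 lower (2.33%, against 9.28%), with a median of 0.28. As deposited 8 were higher (1.86%, against 1.3%) and 55 lower (against 32.4%), and the median was -0.41, of the opposite sign. The 5 lower in P were ANKRD10-IT1, LINC00115, RUSC1-AS1, LINC01963 and PTOV1-AS2. Against input, polysomes were lower for 232 members in P (54.0%, against 10.3%) and 163 in S (37.9%, against 9.46%). Only LINC01060 and IL10RB-DT were higher in P (0.465%, against 0.926%) and only LINC01060 and TUBA1B-AS1 in S (0.465%, against 10.5%).

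LINC01060, on chromosome 4 from 188400736 to 188681051, was far lower in input than in both gradient libraries. It had 0.238 TPM in P input, 35.7 in P monosomes and 11.2 in P polysomes, and 2.74, 27.1 and 35.9 in S. Both gradient libraries were thus above input in P and in S.

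Input RNA was compared to show how the levels of these RNAs differed between S and P. Of 430, 85 were higher in S (19.8%, against 15.6% of genes tested) and 65 lower (15.1%, against 16.2%), with a median of 0.20. As deposited, where the median gene was at -0.20, 61 were higher and 77 lower (14.2% and 17.9%, against 11.9% and 20.9%). The members' shares were thus near those of all genes. In such bulk RNA, fewer cells that hold an RNA and less of it per cell cannot be told apart. In all 3 fractions, 23 members were higher in S (5.35%, against 6.24%) and 32 lower (7.44%, against 6.33%).

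Some members were low in P, and LINC01945, CNIH3-AS1 and LINC00324 were nearly absent there. SOCS2-AS1 had 1.21, 1.91 and 0.235 TPM in input, monosomes and polysomes of P and 17.2, 10.9 and 6.31 in S (input log2 3.24). Its partner SOCS2, a suppressor of cytokine signalling, had 7.01, 6.19 and 4.48 TPM in P and 38.1, 27.5 and 27.1 in S (2.49), and the exons of the pair overlap. LINC01945 was listed at 0 in P input, with 0.121 and 0.0290 TPM in P monosomes and polysomes, and had 7.17, 9.72 and 3.74 in S. CNIH3-AS1 had 0.0711, 0.0531 and 0 TPM in P and 7.46, 3.18 and 5.33 in S, and LINC00324 had 0.281, 0.310 and 0.248 in P and 7.85, 3.32 and 3.62 in S. In these 4 RNAs the 3 S libraries were all above the 3 P libraries. OSER1-DT was also among the 5 highest in input (2.87, 1.69 TPM in P and 16.2 in S), but its S polysome level of 0.948 was below the P level of 1.7.

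The RNAs lowest in S input were MSRB3-AS1 and LINC01291 (both -3.87). MSRB3-AS1 had 22.7, 22.2 and 9.38 TPM in P and 0.414, 0.454 and 0 in S. Its partner MSRB3, a methionine sulfoxide reductase, went the other way, with 6.12, 4.12 and 4.80 TPM in P and 18.6, 10.2 and 14.4 in S. LINC01291 had 35.8, 25.3 and 16.0 TPM in P and 1.20, 3.54 and 0.582 in S, and LINC00326 had 17.2, 9.15 and 15.0 in P and 0.479, 2.80 and 0.454 in S. LINC02915, among the 5 lowest for S against P in polysomes, had 31.6, 21.5 and 18.1 TPM in P and 2.90, 2.31 and 0.798 in S. In these 4 RNAs all 3 P libraries were above all 3 S libraries. The other 2 of the 5 lowest in input were LINC03026 (-3.62) and TUBA1B-AS1 (-3.18). LINC03026 did not share that pattern, since its 17.1 TPM in S monosomes was above P input (14.3) and P polysomes (1.86).

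Member and partner differences in input RNA had a Pearson r of 0.31 and a Spearman rho of 0.28 across the 303 pairs. In these pairs, 57 members were at least 2-fold higher in S and 44 lower, and 40 partners were higher and 37 lower. Both genes were higher in 16 pairs, both lower in 10, and they were past 2-fold in opposite directions in 7. The same counts were not made for pairs of unrelated genes, so they are not read as a link between member and partner. Where the exons of a pair overlap, reads of the 2 genes may be mixed. Among pairs lower in both, TMPO-AS1 had 4.19 TPM in P input and 0.156 in S, and TMPO, which encodes a nuclear lamina-associated protein, 115 and 8.69. LIF-AS2 had 5.09 and 0.0740 TPM, and the cytokine gene LIF 54.6 and 2.29. The locus of BCAN, a brain proteoglycan gene, has 2 members, on chromosome 1. BCAN-AS1 (156637783 to 156641004) had 1.89, 0.376 and 2.32 TPM in P and 12.4, 3.12 and 9.97 in S. BCAN-AS2 (156646507 to 156661424) had 9.71, 7.34 and 5.20 TPM in P and 2.53, 1.35 and 1.31 in S. BCAN had 0.432 TPM in P input and 3.57 in S, so the first was higher with it and the second was lower.

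At the AKAP1 and ATP6AP1 loci, the bases between the start of the divergent transcript and that of the coding gene are shown, since such a stretch can drive both. AKAP1-DT had 1.04, 2.13 and 0.0849 TPM in P and 8.81, 8.52 and 3.65 in S (input log2 2.46). AKAP1, which encodes a protein kinase A anchor of the outer mitochondrial membrane, had 33.9, 9.97 and 50.8 TPM in P and 10.6, 7.30 and 13.1 in S (-1.40). ATP6AP1-DT had 7.03, 5.87 and 3.33 TPM in P and 30.6, 10.3 and 15.3 in S (2.18), and ATP6AP1, a subunit of the vacuolar proton pump, had 76.1, 24.4 and 142 in P and 223, 100 and 267 in S (1.74). The first pair differed in opposite directions and the second in the same direction. The stretches, from the RefSeq promoter table, are given 5′ to 3′ on the minus strand, from which both noncoding RNAs are read, in GRCh38, at chr17:57085025-57085091 and chrX:154428480-154428631.
AKAP1-DT to AKAP1: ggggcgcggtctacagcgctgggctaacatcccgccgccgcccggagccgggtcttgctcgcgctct
ATP6AP1-DT to ATP6AP1: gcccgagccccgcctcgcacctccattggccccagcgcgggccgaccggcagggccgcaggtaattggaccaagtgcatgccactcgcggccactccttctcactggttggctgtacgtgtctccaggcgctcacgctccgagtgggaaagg
They are 67 and 152 bases long, with a GC content of 74.6% and 68.4%. Neither holds any of the 3 motifs searched on both strands: CACGTG (E-box), CCGGAAG (ETS) and TGACTCA (AP-1).

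RefSeq promoter windows (250 bases before to 50 after the start, GRCh38.p14) were matched by symbol for 325 of the 430. CCGGAAG was in 18.8% of them and in 29.3% of the 82 divergent windows, against 10.7% of all 27305 windows. CACGTG was in 9.54% of the members' windows against 7.43%, and TGACTCA in 5.54% against 4.92%. The members' windows had a median GC content of 65.0% against 58.3%, and divergent windows of 69.0%. A match describes the letters and shows no binding.

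The member with the highest mean was TUBA1B-AS1, on chromosome 12 from 49127782 to 49147869 (plus strand). It had 455, 699 and 695 TPM in input, monosomes and polysomes of P and 42.7, 8.24 and 210 in S. The S monosome level was the lowest of the 6. Polysome against monosome RNA was -1.06 in P, where the shift of the median gene was 1.05, and 3.85 in S. Its partner TUBA1B encodes an alpha-tubulin with near-identical relatives, and 1309 exonic bases of the 2 genes overlap on opposite strands. TUBA1B had 2890, 3000 and 3460 TPM in P and 540, 362 and 1150 in S, so both genes were lower in S in all 3 fractions, and how reads were split between them was not tested. Without TUBA1B-AS1, the members' sums were 3708, 4146 and 1741 TPM in P and 3516, 2535 and 1778 in S, so the order of the libraries within each state stayed the same. Between states the polysome order did not: with TUBA1B-AS1 the sum was 2435 TPM in P and 1988 in S. The lower polysome sum in S thus rested on this 1 gene.

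Of the next 10 members by mean TPM, 8 were called lower in polysomes in P and 4 in S (20.8% and 16.7% of genes tested were). Only 1, MPDU1-AS1, was called higher in S (20.8% of genes tested). Some calls in P came only with the shift of the median gene (1.05). LINC00511 is an example, with 31.6 TPM in P monosomes and 29.5 in P polysomes (-1.15). LINC01029, on chromosome 18 from 77971294 to 77993722, had 103, 190 and 40.0 TPM in P and 20.7, 33.9 and 4.09 in S. LINC02780, on chromosome 1 from 3976133 to 4012699, had 116, 95.2 and 72.8 TPM in P and 39.8, 39.3 and 22.4 in S. LHFPL3-AS1, on chromosome 7 from 104738597 to 104804107, had 80.0, 107 and 27.5 TPM in P and 9.05, 7.17 and 6.70 in S. These 3 RNAs were lower in S in each fraction. LINC00963, on chromosome 9 from 129483451 to 129513686, was higher in S in each fraction, with 21.5, 12.6 and 9.54 TPM in P and 85.2, 32.8 and 33.2 in S.

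PRKAR1B-AS1 had 51.6, 92.8 and 11.6 TPM in P and 57.3, 49.7 and 14.2 in S, and DLGAP1-AS2 38, 64.2 and 8.71 in P and 33.4, 38.5 and 6.18 in S. Both were lowest in polysomes in both states, with input levels within 2-fold between states. CCDC144NL-AS1 had 47.8, 28.1 and 27.8 TPM in P and 37.3, 24.2 and 43.3 in S, where polysomes were its highest library. LINC00511, described in several cancers, had 38.8, 31.6 and 29.5 TPM in P and 74.0, 42.8 and 37.3 in S.

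**Figure D5:**
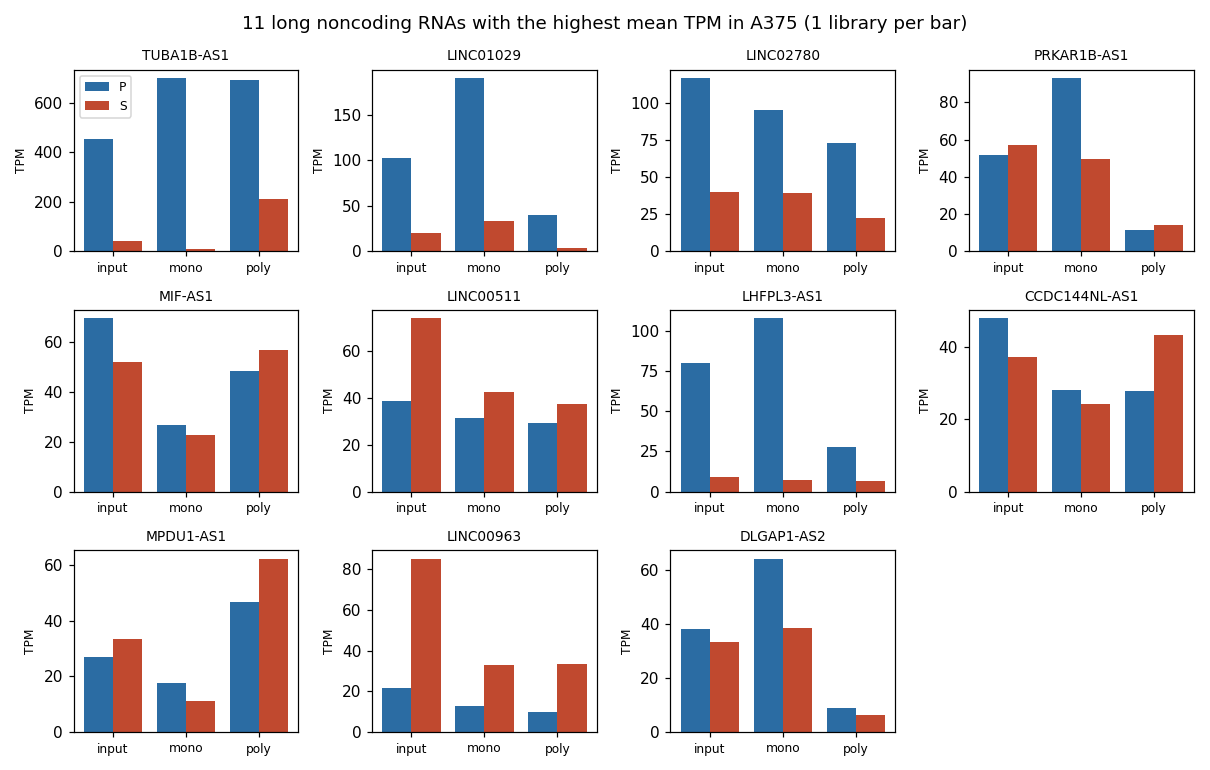
TPM of the 11 long noncoding RNAs with the highest mean, in input, monosome (mono) and polysome (poly) RNA of P and S; each bar is 1 library and each panel has its own axis from 0. TUBA1B-AS1 reached 699 TPM in P monosomes and 8.24 in S monosomes, and MPDU1-AS1 was highest in polysomes in both states.

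A fixed list of long noncoding RNAs studied in melanoma and other cancers had 15 members of its 27 genes here. In P, 14 of the 15 were lower in polysomes (20.8% of genes tested were) and none higher, and in S 9 were lower (16.7% of genes tested) and none higher. In input RNA 4 were higher in S and 4 lower (15.6% and 16.2% of genes tested). LINC00518 had 6.62, 6.05 and 1.41 TPM in P and 18.5, 13.3 and 5.73 in S. LINC01116 had 11.8, 16.0 and 1.05 TPM in P and 32.5, 17.9 and 2.64 in S. FOXD3-AS1, which neighbours the gene of a neural crest transcription factor, had 5.64, 7.49 and 2.71 TPM in P and 24.5, 11.7 and 9.23 in S. These 3 were higher in S input (1.55, 1.59 and 2.14) and lowest in polysomes in both states. The fourth higher in S input was LINC00511 (1.11). The 4 lower were TMPO-AS1 (-1.97), LINC00520 (-1.73), THAP9-AS1 (-1.16) and DLGAP1-AS1 (-1.13). LINC00520 had 4.96, 10.3 and 1.87 TPM in P and 0.566, 1.09 and 0 in S, and DLGAP1-AS1 had 14.3, 24.6 and 4.64 in P and 5.08, 5.32 and 1.82 in S. OIP5-AS1, a cytoplasmic RNA also called cyrano, had 25.4, 36.4 and 6.86 TPM in P and 16.9, 11.2 and 4.58 in S. RUSC1-AS1 was the exception in P, with 8.13, 0.881 and 5.71 TPM there and 3.14, 0.864 and 1.14 in S.

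A fixed list of 10 long noncoding RNAs with described small reading frames had 2 members here. The rest of the list was not found among the genes listed under the symbols searched. Several of these carry newer symbols outside the symbol rule, so the 2 members do not stand for the list. HOXB-AS3, which has been described to encode a peptide, had 5.76, 4.67 and 3.78 TPM in P and 1.95, 0.827 and 0.866 in S. LINC00467, also described to encode a small protein, had 3.75, 5.51 and 1.39 TPM in P and 5.62, 3.04 and 5.17 in S. Both were called lower in polysomes in P (-1.30 and -2.50), where 20.8% of genes tested were. Neither was in S (-0.64 and -0.06), where 16.7% of genes tested were. The polysome level of LINC00467 was its lowest in P and was near its input level in S.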

How the data were processed

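The authors deposited 1 TPM table per cell line, and only the 6 A375 columns (P and S, each as input, monosome and polysome RNA) were used. Per the labels' protocols, libraries came from poly-T selected RNA and random primers. Per the submitters' processing notes the build was GRCh38 (hg38). For the aligner, quantifier, annotation and strand, nothing is stated in these sources. TPM keeps no read depth, so no counting error is given. Differences of log2(TPM + 1) were computed with Python 3.11.15, numpy 2.4.6 and pandas 2.3.3 (figures: matplotlib 3.10.9), relative to the median of genes averaging 1 TPM or more. At least 2-fold was called, and no test was made because each group has 1 library. Members were matched to GENCODE v29 by Ensembl identifier (414 of 430). Named genes are the 12 with the highest mean (1 of these is not reported here), up to 5 at each end of a comparison, fixed-list members and partners; LINC01060, TTC28-AS1 and the BCAN, AKAP1, ATP6AP1, TMPO, LIF and MIF pairs were picked by their values among these or beyond them. Members and lists were chosen with earlier results of these data known. Alternatives were another pseudocount, no centring, other median genes, no mitochondrial genes, other member sets and 4-fold.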

Additional observations from a re-analysis of the deposited data

Results flagged for a closer look

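For 6 members, differences relative to the median gene lay past 2-fold in opposite directions under the same contrast. The contrast was either S against P in 2 fractions or 1 fraction against another in P and S. The same count was not made on the deposited scale. With 1 library per group the difference between them was not tested. The same count was not made over all genes tested, so 6 is not read as many or few. CD27-AS1 had 19.6, 20.8 and 5.04 TPM in input, monosomes and polysomes of P and 24.2, 9.34 and 11.2 in S. S against P was -1.11 in monosomes and 1.22 in polysomes on the log2 scale relative to the median gene. LINC01003 had 12.1, 19.6 and 3.01 TPM in P and 14.7, 9.13 and 8.03 in S, with -1.06 in monosomes and 1.38 in polysomes. TUBA1B-AS1 had a polysome-to-monosome difference of -1.06 in P and 3.85 in S. Its monosomes and polysomes had 699 and 695 TPM in P, and 8.24 and 210 in S. The difference in P was thus nearly all the shift of the median gene (1.05). The monosome-to-input difference of TUBA1B-AS1 was 1.57 in P and -1.55 in S. LINC00339 was higher in S than in P in input (1.03) and lower in monosomes (-2.51) and polysomes (-1.77). For monosomes against input, OSER1-DT had 1.11 in P and -1.16 in S, and ANKRD10-IT1 had -1.76 in P and 1.55 in S. In P, OSER1-DT had 1.69 TPM in input and 2.01 in monosomes, so its difference there was mostly the shift of the median gene (-0.95).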

How the results depend on the processing

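No paired analysis was possible because each group has 1 library. For 26 results (shares of members called and medians) under 12 settings, 272 of 296 alternative values were within 1.5 times of the main value and 24 were not; log2 medians were compared as folds, so small medians count as kept even where they reach 0. That limit was adopted after the data were seen; under the limit used first, the 95% interval over members, 116 were outside. As deposited, polysomes were lower than monosomes for 51.6% of members in P (median -1.07) and 24.7% in S (median -0.44), and the ratio was higher in S for 24.4%. Monosomes were then higher than input for 7.44% in P (median 0.04) and 1.86% in S (median -0.41, the 1 median of opposite sign). The medians of S against P went from 0.20 to 0.00 in input, from 0.25 to 0.04 in polysomes and from 0.84 to 0.55 for the ratio. With a pseudocount of 0.1, polysomes were lower in S than in P for 17.9% (18.7% of genes tested), and monosomes higher than input in S for 18.1% (8.11%). With at least 0.5 TPM in all 6 libraries, that last share was 7.10% (4.99%). At 4-fold, polysomes were lower than monosomes for 54.0% in P (7.70% of genes tested) and 14.0% in S (2.67%), and lower than input for 4.88% (1.31%) and 3.95% (0.878%). The ratio was higher in S for 6.28% (2.22%), and monosomes higher than input for 6.98% in P (1.27%) and 0.930% in S (0.783%). Input RNA was higher in S for 3.49% (4.08%) and lower for 4.42% (4.85%), monosome RNA lower for 10% (2.86%), and polysome RNA higher for 3.26% (4.11%) and lower for 2.09% (4.29%). The cause was not tested. Unknown depth limits the single values of low members most.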

Other observations

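LINC00339 had 12.9 TPM in S input, 0.286 in S monosomes and was listed at 0 in S polysomes, against 6.83, 6.13 and 2.94 in P. It was the lowest member in S for monosomes against input (log2 -2.74 relative to the median gene) and for polysomes against input (-3.79). LINC00460, described in several cancers, had 4.79, 10.8 and 1.24 TPM in the P libraries. In S its input and polysome values are listed as 0, and monosomes had 0.0771. Among the long noncoding RNAs outside the symbol rule, DLEU2 had 25.6, 56.1 and 0.264 TPM in P and 0.195, 0.153 and 1.78 in S, and MALAT1, a nuclear RNA, had 219, 11.8 and 11.1 in P and 31.7, 401 and 341 in S. The highest library of DLEU2 was monosomes in P and polysomes in S, where no library passed 1.78 TPM. For MALAT1 it was input in P and monosomes in S. Polysome against monosome RNA of MALAT1 was similar in both states (-1.13 in P and -0.9 in S).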
